A study of Mus musculus with 31 samples.

Results

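Liver in which Mlx had been deleted was set directly against liver in which Myc had been deleted, with wild type (WT) on neither side of the contrast. The comparison held 10 of the 31 libraries of the series, which were the 4 labelled MlxKO and the 6 labelled MycKO in the table of 5-month-old livers, and all 13397 genes with enough counts out of the 41549 in that table. The MycKO mice carried Mycloxp/loxp and the MlxKO mice Mlxloxp/loxp, and both carried a tamoxifen-activated Cre recombinase at the Rosa26 locus, the allele Gt(ROSA)26Sor tm1(cre/ERT2)Tyj of a B6.129 strain. A Rosa26 Cre is active in most cell types, so deletion need not be limited to hepatocytes. Per the labels, all mice received 75 mg/kg of tamoxifen daily for 5 days from an age of 28 days, and livers were taken at 5 months after a 14 h fast. The 4 MlxKO libraries were all from males, and the 6 MycKO libraries were from 4 males and 2 females (MycKO 3 and MycKO 4). The other 5-month livers were 6 WT of strain C57/B6, with 4 males and 2 females (WT 3 and WT 4), and 5 males with both genes floxed (DKO), which received the same tamoxifen and fast. WT and DKO entered the fit to share the estimate of spread and the term for sex, and their levels are given here as a description only.

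Myc and Mlx belong to linked families of basic helix-loop-helix leucine zipper transcription factors that bind E-boxes of the core sequence CACGTG. Myc pairs with Max and is best known for raising ribosome production and cell growth. Mlx pairs with MondoA (Mlxip) and with ChREBP (Mlxipl), which in liver answer to sugar by switching on glycolysis, fructose breakdown and fatty acid synthesis. Setting the 2 deletions against each other asks where loss of one arm of this network left the liver transcriptome different from loss of the other.

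Poly(A) RNA was counted as reads per gene, and levels are given as CPM, which are counts scaled to the library size after TMM normalization, and compare libraries within a gene but not genes of different length. Totals ran from 18628627 to 22208756 counts in MlxKO and from 19163529 to 23704156 in MycKO. On principal components of all 5-month libraries MycKO 5 lay apart with WT 2 and WT 5, and MycKO 1 and MycKO 2 lay apart with WT 1. Mitochondrial genes held 5.74 to 7.49% of counts in MlxKO and 4.47 to 5.63% in MycKO, so the groups did not overlap, and the part of this in the results was not tested. Markers of hepatocytes summed to 74900 to 107000 CPM in MlxKO and to 72300 to 109000 CPM in MycKO, with all 6 markers detected in both. The design text speaks of 4 to 6 livers per group, and p-values measure the spread between these libraries.

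Both targeted genes served as a check of the labels, with differences tested by edgeR's quasi-likelihood test over all genes and called at a Benjamini-Hochberg adjusted p under 0.05. Myc (ENSMUSG00000022346, chr15:61985391-61990374) stood at 10.4, 14.3, 6.8 and 8.6 CPM in MlxKO 1 to 4, and at 0.72, 1.72 and 2.61 CPM (lowest, median and highest) in MycKO. Each MlxKO library was above every MycKO library, WT stood at 3.61 to 22.2 CPM and DKO at 0.492 to 2.41 CPM. The fold was 5.99 (log2 2.58, SE 0.45, edgeR adjusted p = 0.00434), and the call held without any 1 library but not with a further term for a split among the WT livers (log2 2.22, adjusted p = 0.27). Mlx (ENSMUSG00000017801, chr11:101087277-101092207) stood at 15.7, 20.8, 20.2 and 19.2 CPM in MlxKO and at 21.4, 24.4 and 28.3 CPM in MycKO. WT stood at 24.5 to 29.0 CPM and DKO at 14.7 to 18.6 CPM. Here too MlxKO and MycKO did not overlap, but the difference was small and was not called (log2 −0.34, SE 0.11, edgeR adjusted p = 0.094). DESeq2 gave an adjusted p of 0.046. The sources used here do not say which exons the Mlx allele removes, and a count over the whole gene also reads exons that remain. ChREBP (Mlxipl), at 56.3 to 76.3 CPM in MlxKO and 61.4 to 101 CPM in MycKO, was not called (edgeR adjusted p = 0.276).

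At that threshold 319 of 13397 genes differed, 2.38% of those tested. Of these, 99 were higher in MlxKO (0.739%) and 220 were lower (1.64%). The falls were also the larger, since 122 genes were at least 2-fold lower and 27 at least 2-fold higher in MlxKO. At an unadjusted p under 0.05 the shares were 19.4% in either direction, 8.67% higher and 10.7% lower. The MlxKO and MycKO libraries did not overlap in CPM for 216 of the 319 genes, against 7.47% of all genes tested. The WT mean lay between the MlxKO and MycKO means for 261 of the 319. It was nearer to MycKO for 255, and the DKO mean was nearer to MlxKO for 283. The 319 were chosen for a gap between MlxKO and MycKO, which favours both a lack of overlap and a WT mean between them. The same shares over all genes tested were not computed. WT and MycKO means also include females, while MlxKO and DKO means do not. DESeq2 called 726 genes (5.42%), which included 317 of the 319, and limma-voom called 319 (2.38%), of which 277 were shared. The count rested on single libraries, as it fell to 167 without MlxKO 1, to 92 without MlxKO 2, to 161 without MlxKO 3, to 142 without MlxKO 4, to 165 without MycKO 2 and to 212 without MycKO 5, and rose to 503 without WT 4. Across the 21 fits that each left out 1 library, 82 of the 319 genes were called every time, 16 higher and 66 lower in MlxKO, and all 319 kept their direction where they had a value.

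**Figure D1:**
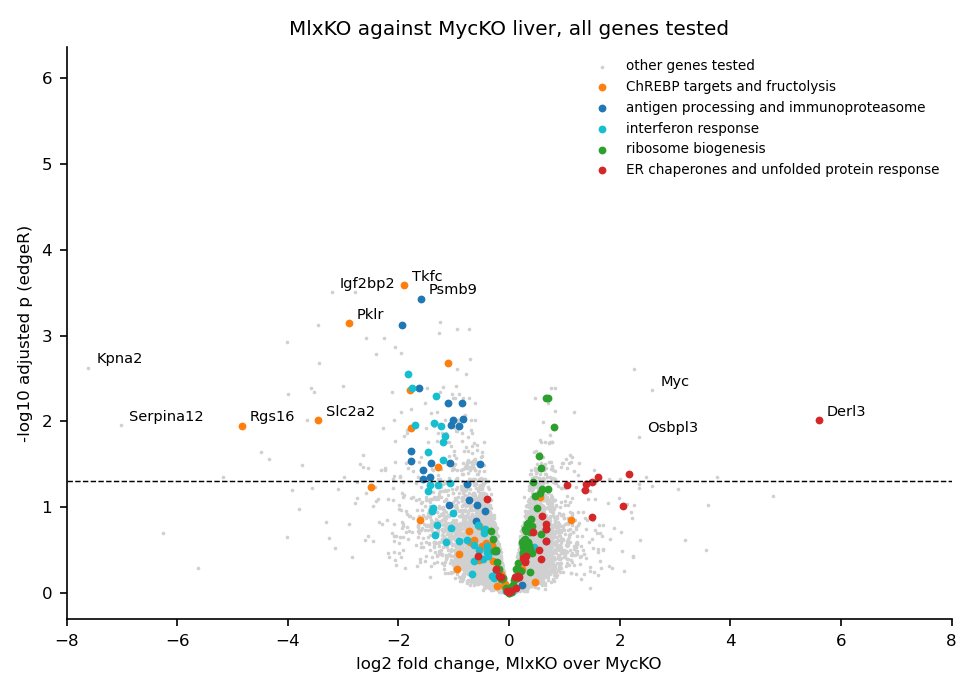
Each point is a gene, with the log2 fold change of MlxKO over MycKO on the x axis and −log10 of the adjusted p on the y axis, above the dashed line where it was called at 0.05. Called ChREBP targets, antigen processing genes and interferon genes sit to the left among the 220 falls, and called ribosome biogenesis and ER chaperone genes to the right among the 99 rises (4 genes with fitted changes beyond the x axis are not drawn).

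A split between libraries stood beside the contrast and has to be given before its results. Kpna2, an importin that carries proteins into the nucleus, is on chromosome 11 (chr11:106988629-106999541, GRCm38.p6), 5.9 Mb from Mlx, and Gm10184 is listed on chromosome 17 (chr17:89908462-89910449). Kpna2 stood at 0.0828, 0.421, 0.38 and 1.01 CPM in MlxKO 1 to 4 and at 33.1, 46.6 and 58.1 CPM (lowest, median and highest) in MycKO. Gm10184 stood at 38.2, 44.6, 35.3 and 36.2 CPM in MlxKO 1 to 4, at 0.434 CPM in MycKO 1, and had no count in the other 5 MycKO libraries. The levels of the 2 were thus all or none in opposite directions, while their sum ran from 35.7 to 45.0 CPM in MlxKO and from 33.1 to 58.4 CPM in MycKO, so reads of one gene counted under the other and a change of each gene cannot be told apart. WT was divided in the same way, with WT 3 and WT 4 at 46.8 and 48.5 CPM of Gm10184 and no count of Kpna2, and the other WT libraries at 41.8 to 57.4 CPM of Kpna2. WT 3 and WT 4 were the female WT livers, but MycKO 3 and MycKO 4, also female, held 42.0 and 40.9 CPM of Kpna2. All DKO libraries stood with MlxKO. With a term shared by the female WT livers, MlxKO and DKO added to the fit, the call count fell from 319 to 74, 20 of them among the 319, and 308 of the 319 kept their direction. This term is estimated from WT 3 and WT 4 against the male WT livers, with the sex difference then taken from MycKO alone. It cannot be told apart from a sex difference that differs between WT and MycKO. It rests on few libraries, so its folds have wide errors. The split and the MlxKO against MycKO difference cannot otherwise be told apart.

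The split recurred on chromosome 11. There, 10 of the 249 genes tested within 10 Mb of Mlx were called (4.02%) and 15 of the 335 between 10 and 25 Mb (4.48%), against 14 of the 507 farther away (2.76%) and 280 of the 12306 on other chromosomes (2.28%). For 11 of the 25 called genes within 25 Mb, WT 3 and WT 4 were both nearer to the MlxKO mean and the other 4 WT libraries nearer to the MycKO mean, against 29 of the 294 called genes elsewhere (44.0% against 9.86%). All 11 lie on the same side of Mlx, at higher coordinates, 4 of them within 10 Mb and 7 of them 12.2 to 15.7 Mb away. Cyb561, an electron-carrying membrane protein 4.8 Mb from Mlx, stood at 1.78, 1.21, 1.47 and 1.76 CPM in MlxKO 1 to 4 and at 5.76, 7.94 and 10.3 CPM in MycKO, which did not overlap. It fell by 2.78 on the log2 scale (SE 0.35, edgeR adjusted p = 0.000312), and WT 3 and WT 4 were at 2.05 and 1.38 CPM against 6.17 to 10.7 CPM in the other WT livers. BC018473, 15.7 Mb from Mlx, was at 2.14 to 13.7 CPM in MlxKO and at 0 to 0.0964 CPM in MycKO, with 3.76 and 7.69 CPM in WT 3 and WT 4. Sstr2, the receptor for the hormone somatostatin, is 12.5 Mb away and showed the same division of WT, at 0.0952 and 0.166 CPM in WT 3 and WT 4 and 0.889 to 3.71 CPM in the other 4. It stood at 0.248, 0.28, 0.143 and 0.107 CPM in MlxKO 1 to 4 and at 0.73 to 2.51 CPM in MycKO, a fall of 3.57 on the log2 scale (SE 0.62, edgeR adjusted p = 0.00413), and it overlaps Slc39a11, also called lower, on the other strand. Cyb561, BC018473 and Gm10184 were named after their values were seen, and the calls of Kpna2, Cyb561, BC018473, Sstr2 and Gm10184 held without any 1 library.

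**Figure D2:**
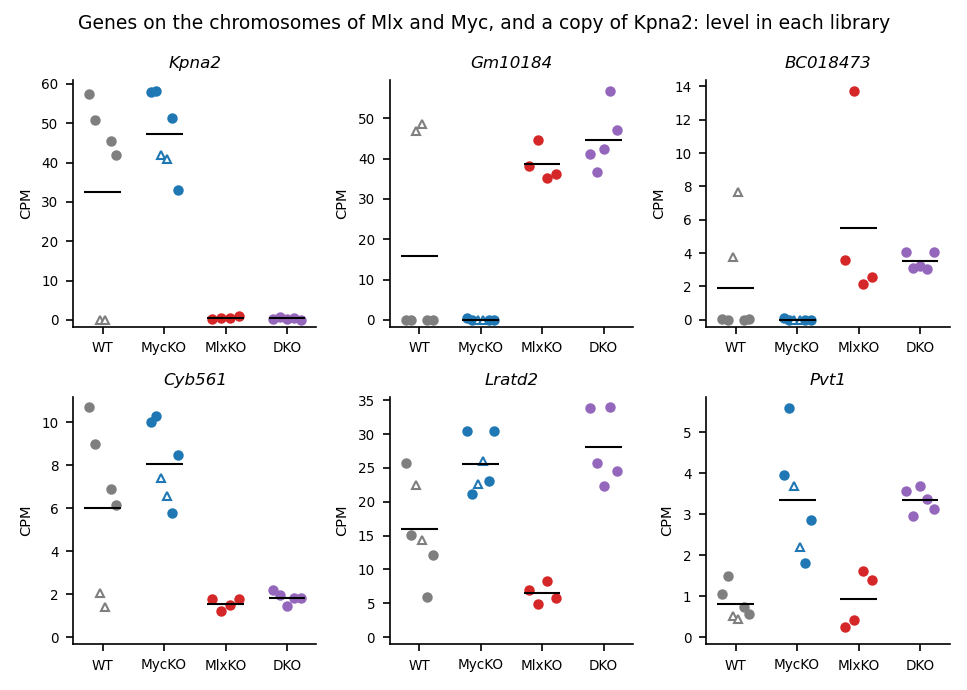
CPM (y axis) of 6 genes in each of the 21 libraries of 5-month liver (x axis: WT, MycKO, MlxKO and DKO), with filled circles for males, open triangles for females and a line at the group mean. The 2 female WT livers sit with MlxKO and DKO at Kpna2, Gm10184, BC018473 and Cyb561, and the Myc neighbours Lratd2 and Pvt1 are higher in MycKO and DKO than in MlxKO.

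Next to Myc, 4 of the 54 genes tested within 10 Mb were called (7.41%), beside 2.38% of all genes tested. The 4 were Pvt1, Lratd2, 9930014A18Rik and Myc itself, the gene deleted in MycKO. Pvt1, a long noncoding RNA beside Myc, stood at 0.248, 0.421, 1.62 and 1.39 CPM in MlxKO 1 to 4 and at 1.8, 3.28 and 5.59 CPM in MycKO. Lratd2 stood at 6.95, 4.91, 8.27 and 5.77 CPM in MlxKO and at 21.2, 24.5 and 30.5 CPM in MycKO. In both genes every MycKO library was above every MlxKO library, opposite to Myc. Pvt1 fell by 2.06 on the log2 scale (SE 0.44, edgeR adjusted p = 0.0169), a call that ended without MlxKO 2 or MycKO 2 (adjusted p up to 0.0791). Lratd2 fell by 1.95 (SE 0.30, edgeR adjusted p = 0.00161). DKO, which also lacks Myc, stood at 2.95 to 3.68 CPM of Pvt1 and 22.3 to 34.0 CPM of Lratd2, and WT at 0.442 to 1.5 and 5.85 to 25.8 CPM. Lratd2 overlaps 9930014A18Rik on the other strand, and the strandedness of the counting is not given, so their reads cannot be told apart. Both were named after their values were seen.

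Part of the genes of sugar use were called lower in MlxKO. In the list of ChREBP targets and fructose breakdown 8 of 33 tested genes were called lower and none higher, with a median log2 change of −0.54 beside −0.02 over all genes tested and a background of 1.64% called lower. The 8 were Pklr, Tkfc, Khk, Slc2a2, Rgs16, Elovl6, Me1 and Fasn, and 28 of the 33 had a negative change. Their summed level ran from 9560 to 10800 CPM in MlxKO and from 12200 to 17100 CPM in MycKO. Without MlxKO 2 6 of the 8 calls were left, limma-voom called 6 members and DESeq2 9 lower and 1 higher. With the shared term 1 was called, Tkfc, and the median was −0.64.

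Sequence upstream of 2 of these genes is shown because Mlx partners bind E-box sequences. The bases are the 250 before the RefSeq start site on GRCm38.p6, in capitals where the motif lies. In Pklr (chr3:89136373-89136622, plus strand) the capitals mark the carbohydrate response element (ChoRE), a pair of E-box-like sequences, which starts 170 bases before the start site. In Khk (chr5:30921309-30921558, plus strand) they mark a CACGTG that starts 71 bases before it.
Pklr: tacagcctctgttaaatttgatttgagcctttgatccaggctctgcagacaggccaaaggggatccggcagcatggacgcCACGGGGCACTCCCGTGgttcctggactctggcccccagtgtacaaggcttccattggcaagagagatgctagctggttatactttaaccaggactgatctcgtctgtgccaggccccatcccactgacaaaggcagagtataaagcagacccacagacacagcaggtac
Khk: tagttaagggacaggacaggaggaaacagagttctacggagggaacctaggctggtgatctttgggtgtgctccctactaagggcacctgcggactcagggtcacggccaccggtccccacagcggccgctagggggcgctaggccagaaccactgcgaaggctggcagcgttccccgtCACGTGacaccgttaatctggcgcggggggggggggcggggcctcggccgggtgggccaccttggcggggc
The motifs were searched on both strands from 250 bases before to 50 after the start site, a window that the reference table gave for 10454 of the 13397 genes tested. The ChoRE was found in 10 of these 10454 genes (0.0957%) and in 1 of the 27 ChREBP-list genes with a window, which was Pklr. CACGTG was found in 11.7% of all windows and in 4 of these 27, of which Khk was called. A match here is a description of letters, chosen after the values were seen.

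Of the 8 called genes, 3 act in glycolysis and fructose breakdown. Pklr, the liver pyruvate kinase that closes glycolysis (ENSMUSG00000041237, chr3:89136142-89146784), stood at 12.8, 8.97, 11.4 and 13 CPM in MlxKO 1 to 4 and at 42.9, 94.2 and 167 CPM in MycKO. The lowest MycKO liver was above the highest MlxKO liver by a wide margin, and the fold was 7.48 lower in MlxKO (log2 −2.90, SE 0.40, edgeR adjusted p = 0.000716). Hcn3, a pacemaker channel gene that overlaps Pklr on the other strand, was lower as well (log2 −3.44, SE 0.55, edgeR adjusted p = 0.00207), at 0.187 to 0.372 CPM against 2.02 to 5.25 CPM, and the reads of the pair cannot be told apart. Tkfc, which phosphorylates the glyceraldehyde made from fructose (ENSMUSG00000034371, chr19:10587791-10605654), stood at 91.4, 72.7, 81.2 and 83.4 CPM in MlxKO and at 206, 433 and 643 CPM in MycKO. It did not overlap between groups, had the smallest adjusted p of the list (log2 −1.91, SE 0.23, edgeR adjusted p = 0.000257), and was called with the shared term too (log2 −2.55, adjusted p = 0.0352). Khk, the ketohexokinase that starts fructose breakdown, stood at 77.7, 46.8, 89.7 and 95.1 CPM in MlxKO and at 145, 264 and 460 CPM in MycKO. The groups were again apart (log2 −1.78, SE 0.36, edgeR adjusted p = 0.0119), although the call ended without MlxKO 2 (adjusted p = 0.067).

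A glucose transporter and a signalling gene were among the 8 as well. Slc2a2, the hepatocyte glucose transporter GLUT2 (chr3:28697903-28731359), stood at 5.05, 5.84, 14.9 and 25.3 CPM in MlxKO 1 to 4 and at 30.7, 158 and 291 CPM in MycKO. It was 11-fold lower in MlxKO without overlap (log2 −3.46, SE 0.68, edgeR adjusted p = 0.0096), with a spread of several-fold inside each group. Rgs16, a regulator of G-protein signalling, stood at 0.745, 3.88, 0.285 and 0.534 CPM in MlxKO and at 19.0, 63.4 and 191 CPM in MycKO. MlxKO 2 was the highest of its group and still under every MycKO library (log2 −4.84, SE 0.98, edgeR adjusted p = 0.0112). Slc25a47, a liver mitochondrial carrier named after its values were seen, stood at 757, 668, 708 and 660 CPM against 987, 1830 and 3410 CPM (log2 −1.40, SE 0.27, edgeR adjusted p = 0.00796), and was called with the shared term as well.

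The other 3 of the 8 act in fatty acid synthesis. Elovl6, which lengthens palmitate, stood at 13, 8.78, 11.7 and 13 CPM in MlxKO 1 to 4 and at 24.7, 39.5 and 59.6 CPM in MycKO. Me1, the malic enzyme that makes NADPH, stood at 98.5, 94.8, 85.8 and 84.9 CPM and at 150, 213 and 351 CPM. Neither overlapped, and they fell by 1.79 (SE 0.31, edgeR adjusted p = 0.00429) and 1.10 (SE 0.18, adjusted p = 0.00207) on the log2 scale. Fasn, the fatty acid synthase, did overlap, at 65.2, 50.3, 39.6 and 55.3 CPM in MlxKO against 44.2, 180 and 238 CPM in MycKO (log2 −1.28, SE 0.31, edgeR adjusted p = 0.0338). It lies on chromosome 11, 19.7 Mb from Mlx, and its call ended without any 1 of the 4 MlxKO libraries, MycKO 1 or MycKO 2 (adjusted p up to 0.103). In the list of lipogenesis and triglyceride synthesis 4 of 26 were called lower, beside 1.64% of all genes tested, with a median of −0.30. These were Elovl6, Me1, Fasn and Mid1ip1. Mid1ip1, which aids acetyl-CoA carboxylase, overlapped and lost its call in 14 of the 21 fits without 1 library. With the shared term none of the 26 was called.

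**Figure D3:**
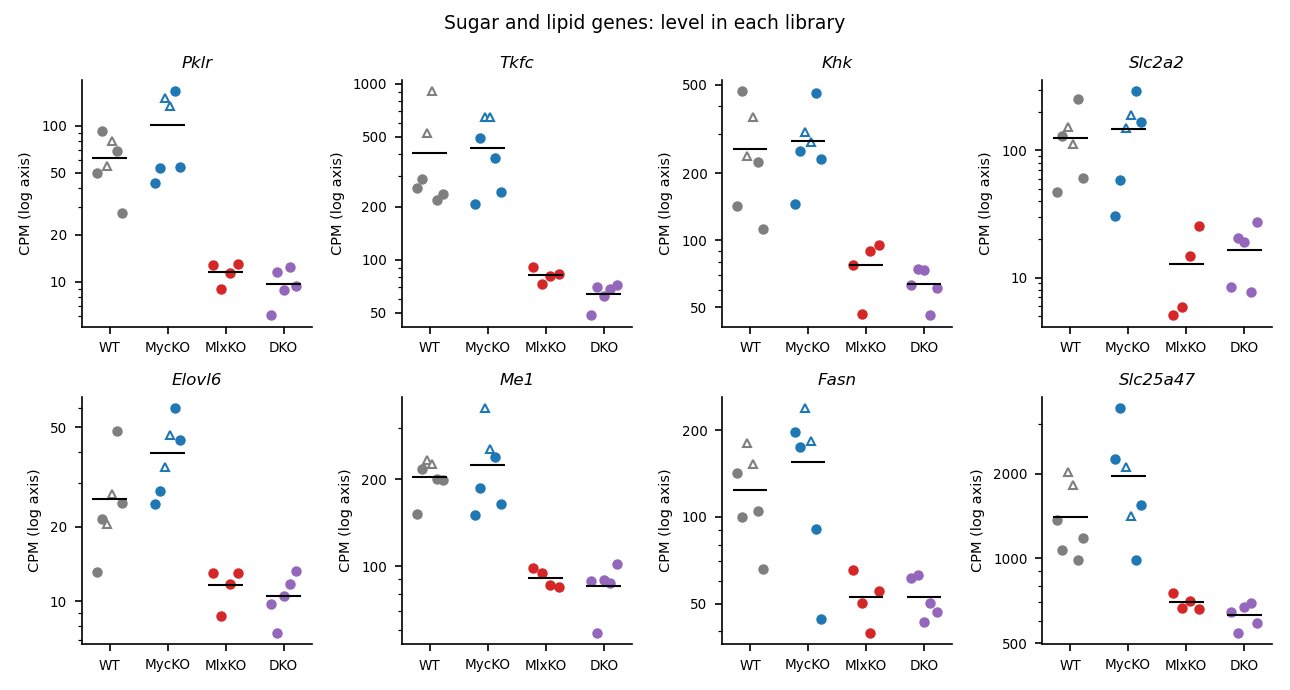
CPM on log axes of 8 sugar and lipid genes in each library of WT, MycKO, MlxKO and DKO liver, with filled circles for males, open triangles for females and a line at the group mean. For Pklr, Tkfc, Khk, Slc2a2, Elovl6, Me1 and Slc25a47 every MlxKO library is below every MycKO library, while Fasn overlaps through MycKO at 44.2 CPM, and DKO sits at the level of MlxKO.

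Other lists of glucose handling gave few calls. Of 24 glycolysis genes 3 were called lower, Pklr, Gapdh and Eno1, beside 1.64% of all genes tested, with a median of −0.30. Gapdh stood at 628, 550, 527 and 533 CPM in MlxKO 1 to 4 and at 739 to 1010 CPM in MycKO, and fell by 0.62 on the log2 scale (SE 0.14, edgeR adjusted p = 0.0273), a call lost without MlxKO 2, MlxKO 3, MlxKO 4, MycKO 2 or MycKO 5 (adjusted p up to 0.0891). In 15 of the 21 fits without 1 library Eno1 was not called. Of 19 gluconeogenesis genes 1 was called lower, beside 1.64% of all genes tested. This was the fructose bisphosphatase Fbp1, at 596, 387, 522 and 493 CPM against 632, 868 and 1380 CPM. The groups just failed to meet (log2 −1.03, SE 0.18, edgeR adjusted p = 0.00479). Glycogen synthase Gys2 and glycogen phosphorylase Pygl, named after their values were seen, were both lower. Gys2 stood at 109, 107, 103 and 111 CPM against 181, 198 and 256 CPM (log2 −0.93, SE 0.18, edgeR adjusted p = 0.0097), and Pygl at 150, 118, 149 and 150 CPM against 180, 285 and 411 CPM (log2 −1.01, SE 0.18, edgeR adjusted p = 0.00536). Of 30 genes in the list of the TCA cycle and pyruvate dehydrogenase 1 was called lower, beside 1.64% of all genes tested. This was Pdk1, a kinase that switches off pyruvate dehydrogenase. It stood at 22.8, 21.2, 32.4 and 31.8 CPM against 55.3, 71.4 and 93.7 CPM, without overlap (log2 −1.27, SE 0.19, edgeR adjusted p = 0.00093).

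Fat burning and respiration gave no calls by edgeR. Of 49 genes of fatty acid oxidation none was called by edgeR. There were 10 at an unadjusted p under 0.05, all higher in MlxKO, beside 8.67% higher over all genes tested. The median was 0.19, which was −0.30 with the shared term. DESeq2 called 4 and limma-voom 1, all higher. None of 37 genes of respiratory complex I and none of 42 of complexes II to V was called by edgeR, DESeq2 or limma-voom, with medians of −0.31 and −0.25, 9 and 5 genes at an unadjusted p under 0.05, and 35 and 40 genes with a negative change. These 9 and 5 were all lower in MlxKO, beside 10.7% lower over all genes tested at that p. None of 78 mitochondrial and 80 cytoplasmic ribosomal protein genes was called by any of the 3 tools either, with medians of −0.22 and −0.14 and 9 and 1 genes at an unadjusted p under 0.05. Cholesterol synthesis gave none of 24 by the 3 tools, 1 at an unadjusted p under 0.05, and a median that turned from −0.29 to 0.24 without WT 2, WT 5 and MycKO 5. In the urea cycle and amino acid list 2 of 50 were called, both higher in MlxKO, beside 0.739% called higher over all genes tested. Dbt, a subunit of the branched-chain ketoacid dehydrogenase, stood at 111, 121, 115 and 114 CPM against 50.1, 63.2 and 78.8 CPM (log2 0.75, SE 0.13, edgeR adjusted p = 0.00413). Ivd, which acts in leucine breakdown, lost its call in 12 of the 21 fits without 1 library. The bile acid list gave 1 of 23, called lower, beside 1.64% of all genes tested. This was Slc10a1, the bile acid importer of hepatocytes, at 228, 226, 229 and 254 CPM against 353, 484 and 615 CPM (log2 −0.96, SE 0.16, edgeR adjusted p = 0.00382).

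Genes of antigen presentation had the largest share of calls of the pathway lists tested. Cells show peptides on MHC class I molecules after cutting them with the immunoproteasome and moving them by the TAP transporter, and interferons raise these genes together. Of the 28 tested 17 were called lower in MlxKO and none higher, with a median log2 change of −0.96, beside the 1.64% called lower over all genes. Of the 41 tested genes of the interferon response 10 were called lower and none higher, with a median of −1.01, and 39 had a negative change. The counts moved with the libraries. The 17 became 8 without MlxKO 2, 9 without MlxKO 3, 9 without MycKO 2, 10 without MlxKO 1, and 11 without MlxKO 4 or MycKO 1, and without MycKO 1 and MycKO 2 together the list had 6 calls. The 10 became 4 without MlxKO 2. With the shared term 3 antigen genes were called and no interferon gene, with medians of −1.41 and −0.73, and DESeq2 called 21 and 16.

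The upstream bases of 2 interferon genes are shown for the core of an interferon-stimulated response element, GAAA and GAAA with any 2 bases between them. The motif was searched on both strands and was found in 3.88% of all windows, in 20 of the 29 interferon genes with a window, in 5 of the 7 called ones and in 4 of the 22 antigen genes with a window. Its letters are in capitals, with the match on the opposite strand, in Gbp7 (chr3:142530086-142530335, plus strand). They are in capitals as 2 overlapping matches in Bst2 (chr8:71537473-71537722, minus strand).
Gbp7: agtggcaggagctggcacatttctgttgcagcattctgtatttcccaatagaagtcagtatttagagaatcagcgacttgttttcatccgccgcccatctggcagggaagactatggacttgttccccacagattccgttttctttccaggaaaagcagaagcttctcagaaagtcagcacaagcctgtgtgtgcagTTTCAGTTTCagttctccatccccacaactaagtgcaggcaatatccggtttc
Bst2: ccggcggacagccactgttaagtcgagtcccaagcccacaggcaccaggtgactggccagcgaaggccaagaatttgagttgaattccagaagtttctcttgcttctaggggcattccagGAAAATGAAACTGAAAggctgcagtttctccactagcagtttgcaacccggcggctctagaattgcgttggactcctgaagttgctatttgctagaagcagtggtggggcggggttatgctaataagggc

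The immunoproteasome subunits Psmb9 and Psmb8 had the smallest p-values of the list, while the subunit Psmb10 lost its call in 6 of the 21 fits without 1 library. Psmb9 (chr17:34181987-34187764) stood at 4.8, 3.6, 5.94 and 4.97 CPM in MlxKO 1 to 4 and at 8.87, 12.5 and 18.5 CPM in MycKO, with log2 −1.60 (SE 0.21, edgeR adjusted p = 0.00037). Psmb8 (chr17:34197721-34201454) stood at 9.1, 3.83, 8.99 and 9.83 CPM and at 16.0, 27.2 and 40.1 CPM, with log2 −1.93 (SE 0.27, edgeR adjusted p = 0.000747). Both were apart between groups, and WT stood at 5.28 to 10.6 CPM of Psmb9 and 11.1 to 27.1 CPM of Psmb8. Psmb9 overlaps Tap1, a peptide transporter subunit, on the other strand, and their reads cannot be told apart. The class I chain H2-K1 stood at 989, 957, 997 and 897 CPM in MlxKO and at 1490, 1670 and 3020 CPM in MycKO (log2 −1.05, SE 0.21, edgeR adjusted p = 0.0111). B2m, the light chain of class I, stood at 874, 780, 895 and 852 CPM and at 938, 1330 and 2180 CPM (log2 −0.84, SE 0.16, edgeR adjusted p = 0.00925). Neither overlapped, and the calls of Psmb8, Psmb9, H2-K1, B2m and the peptide transporter subunit Tap2 held without any 1 library. H2-Q4, H2-Q7, H2-D1 and H2-T23 were lower as well, by 1.11, 1.63, 1.02 and 0.91 on the log2 scale, but class I genes are near-identical copies and their reads may be split between them. H2-T23, H2-K1 and H2-D1 were the antigen genes called with the shared term. H2-K1, H2-D1, H2-T23, B2m and Tap2 were named after their values were seen.

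Class II genes, which professional antigen-presenting cells use, overlapped between groups. H2-Ab1 stood at 14.9, 10.5, 14.3 and 19.2 CPM in MlxKO 1 to 4 and at 16.4, 31.1 and 87.5 CPM in MycKO (log2 −1.77, SE 0.40, edgeR adjusted p = 0.022), and its call ended without MlxKO 1, MlxKO 2, MlxKO 3 or MycKO 2 (adjusted p up to 0.0924). H2-Aa and H2-DMb1 lost theirs in 16 fits each. Among interferon genes, Irf7, which drives interferon production, stood at 7.95, 8.46, 11.4 and 10.6 CPM against 19.9, 29.1 and 51.6 CPM (log2 −1.84, SE 0.30, edgeR adjusted p = 0.00277). Usp18, a brake on interferon signalling, stood at 4.06, 2.9, 2.47 and 3.95 CPM against 7.21, 11.9 and 16.2 CPM (log2 −1.75, SE 0.30, edgeR adjusted p = 0.00413). The guanylate-binding protein Gbp7 stood at 3.15, 2.52, 2.95 and 2.94 CPM against 4.89, 6.95 and 8.42 CPM (log2 −1.33, SE 0.24, edgeR adjusted p = 0.00504). In each of the 3 all MlxKO libraries were below all MycKO libraries, and each call held without any 1 library. Bst2, which tethers budding viruses to the cell, was also apart, at 62.2, 41.7, 69.3 and 61.1 CPM against 98.9, 107 and 182 CPM (log2 −1.24, SE 0.25, edgeR adjusted p = 0.0112), but not called without MlxKO 2 (adjusted p = 0.0668). The interferon-induced GTPase Tgtp1, on chromosome 11, was 11.6-fold lower (log2 −3.54, SE 0.62, edgeR adjusted p = 0.00451), at 1.09 to 2.19 CPM against 2.97 to 52.8 CPM, and was called with the shared term too, but it belongs to a family of near-identical copies. Ly6a, an interferon-induced surface protein named after its values were seen, stood at 1.2, 1.36, 0.856 and 3.1 CPM against 5.83 to 15.4 CPM (log2 −2.59, SE 0.38, edgeR adjusted p = 0.00106).

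**Figure D4:**
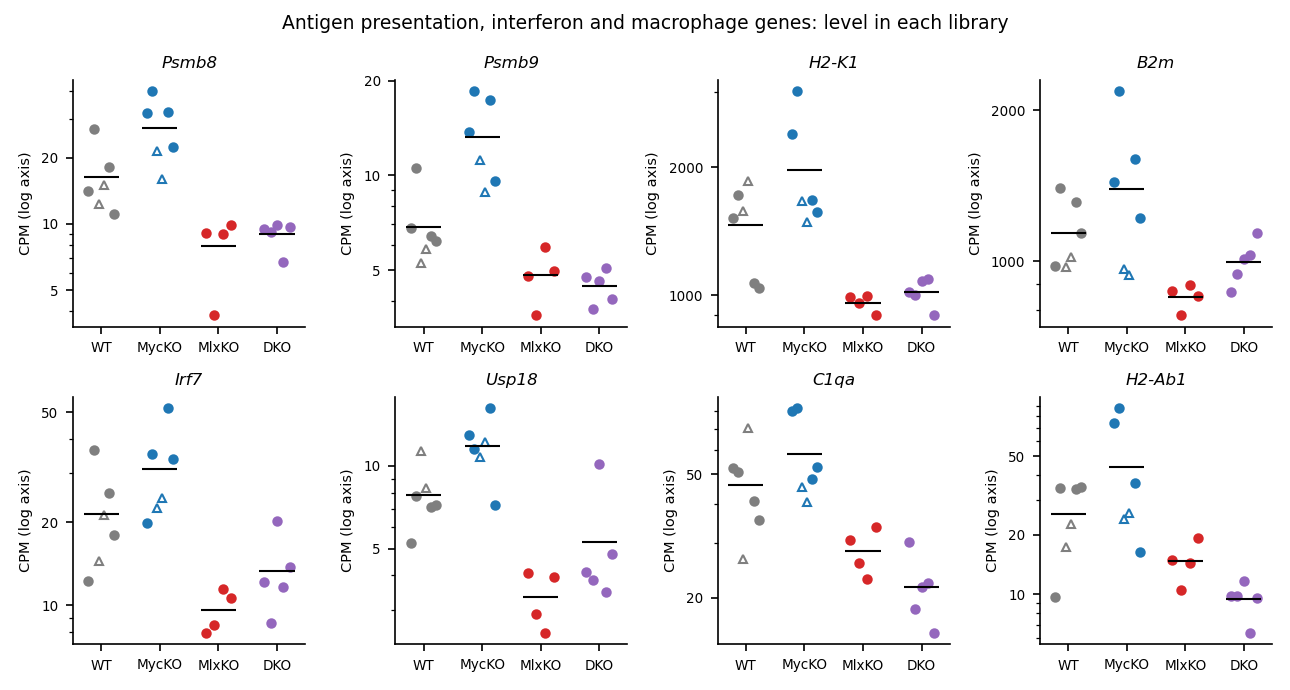
CPM on log axes of 8 genes of antigen presentation, interferon response and macrophages in each library of WT, MycKO, MlxKO and DKO liver, with filled circles for males, open triangles for females and a line at the group mean. Psmb8, Psmb9, H2-K1, B2m, Irf7, Usp18 and C1qa do not overlap between MlxKO and MycKO, H2-Ab1 does, and MycKO 1 and MycKO 2 are the highest MycKO libraries for H2-K1, C1qa and H2-Ab1.

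Some markers of macrophages and of T and NK cells were called lower in MlxKO too. Of 16 markers of Kupffer cells and macrophages 4 were called lower (Cd5l, C1qa, C1qb and C1qc), beside 1.64% of all genes tested. All 16 had a negative change, and the median was −0.83. Their summed level ran from 327 to 485 CPM in MlxKO and from 584 to 854 CPM in MycKO, with no marker at 0 in either group. Cd5l, a secreted protein of Kupffer cells, stood at 46.6, 35.3, 33.8 and 54.2 CPM against 55.2, 86.5 and 114 CPM (log2 −1.29, SE 0.27, edgeR adjusted p = 0.0138). None of the 4 calls was left without MlxKO 2 or without MlxKO 3, 1 without MlxKO 1, MlxKO 4, MycKO 1 or MycKO 2, and none without MycKO 1 and MycKO 2 together. Of 12 tested markers of T and NK cells 2 were called lower, with a median of −1.34, and the 19 markers summed to 3.61 to 8.12 CPM in MlxKO and 7.44 to 15.8 CPM in MycKO, with 3 at 0 in each group. Cd8a, a co-receptor of killer T cells, stood at 0.0828, 0.234, 0.143 and 0.16 CPM against 0.629, 0.946 and 1.77 CPM (log2 −3.00, SE 0.51, edgeR adjusted p = 0.00382), and WT was at 0 to 0.157 CPM. Gzmb, a protease of killer cells, lost its call in 12 fits without 1 library. Neutrophil markers summed to 10.3 to 28.9 CPM in MlxKO and 9.59 to 53.3 CPM in MycKO, B and plasma cell markers to 1.21 to 5.66 and 2.88 to 7.75 CPM, dendritic cell markers to 2.51 to 4.3 and 2.14 to 4.0 CPM, and sinusoidal endothelial markers to 338 to 584 and 360 to 607 CPM. No marker of these 4 lists was called by edgeR or limma-voom (of 5, 5, 4 and 13 tested), DESeq2 called 1 neutrophil marker, and 3, 1, 0 and 0 passed an unadjusted p under 0.05. In bulk liver fewer cells of a type and less RNA per cell cannot be told apart, and the part of immune cells in the antigen and interferon results was not tested.

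A small part of the ribosome biogenesis list was called higher in MlxKO than in MycKO. Of 70 tested genes 5 were higher (Polr1b, Tsr1, Gpatch4, Nol9 and Nop58) and none was called lower, beside a background of 0.739% called higher, with a median of 0.25 and 56 positive changes. The summed level overlapped, at 1660 to 1780 CPM in MlxKO and 1470 to 1710 CPM in MycKO. Polr1b, the second subunit of RNA polymerase I, which copies ribosomal RNA genes, stood at 19.6, 25.7, 19.9 and 21.7 CPM in MlxKO 1 to 4 and at 11.7, 14.7 and 19.5 CPM in MycKO. The groups did not overlap, by a small margin (log2 0.67, SE 0.12, edgeR adjusted p = 0.00535). Tsr1, which matures the small subunit, stood at 25.9, 24.9, 26.4 and 24.1 CPM and at 12.9, 16.6 and 20.6 CPM (log2 0.71, SE 0.13, edgeR adjusted p = 0.00535). Tsr1 overlaps Srr on the other strand over 2984 bases, and reads there cannot be told apart. Srr had means of 97.3 CPM in MlxKO and 83.5 CPM in MycKO. Gpatch4, a nucleolar protein, stood at 11.8, 10.1, 13.6 and 13.5 CPM and at 4.41, 7.95 and 9.46 CPM (log2 0.82, SE 0.17, edgeR adjusted p = 0.0116). These 3 were called without any 1 library. WT stood at 15.0 to 23.2, 17.2 to 27.3 and 8.92 to 16.3 CPM for Polr1b, Tsr1 and Gpatch4, overlapping MlxKO, and DKO at 13.5 to 17.2, 16.0 to 21.3 and 4.5 to 5.52 CPM. Without MlxKO 1 or without MlxKO 2 3 of the 5 were left, DESeq2 called 10 and limma-voom 6, and with no term for sex 1 was called. The shared term left none called and a median of −0.02. CACGTG lay in 14 of the 58 members with a promoter window (24.1%), against 11.7% of all windows. Mdn1, a giant ATPase of large-subunit assembly, stood at 14.8, 13.8, 12.9 and 16.6 CPM against 4.5, 6.85 and 9.71 CPM (log2 1.11, SE 0.25, edgeR adjusted p = 0.0248), and was called with the shared term too (log2 2.57) but not without MlxKO 1, 2 or 4 or MycKO 1, 2 or 5. Of 63 translation factors and tRNA synthetases 1 was called higher in MlxKO, beside 0.739% of all genes tested. This was Iars (log2 0.65, SE 0.14, edgeR adjusted p = 0.0175) at 41.0 to 52.7 CPM against 21.5 to 39.1 CPM, a call lost without MlxKO 2, MlxKO 4 or MycKO 2.

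A few ER chaperone genes were called higher, with a wide spread between the MlxKO livers. Genes of this kind answer to unfolded protein in the endoplasmic reticulum through the ER stress response element (ERSE), CCAAT and CCACG with any 9 bases between them. Of 33 tested 3 were called higher, Derl3, Creld2 and Hspa5, beside 0.739% of all genes tested, with a median of 0.30. Limma-voom called none, DESeq2 called 7 higher and 1 lower, and the shared term called none with a median of −0.10. The summed level of the list was 3760, 5720, 10200 and 9940 CPM in MlxKO 1 to 4 and 4140 to 6230 CPM in MycKO, so MlxKO 1 was below and MlxKO 3 and MlxKO 4 above every MycKO library. The ERSE, searched on both strands, was found in 0.172% of all windows, in 9 of the 27 members with a window and in all 3 called ones. It is in capitals in Hspa5 (chr2:34771840-34772089, plus strand), 65 bases before the start site, and, on the opposite strand, in Derl3 (chr10:75893148-75893397, plus strand), 156 bases before it.
Hspa5: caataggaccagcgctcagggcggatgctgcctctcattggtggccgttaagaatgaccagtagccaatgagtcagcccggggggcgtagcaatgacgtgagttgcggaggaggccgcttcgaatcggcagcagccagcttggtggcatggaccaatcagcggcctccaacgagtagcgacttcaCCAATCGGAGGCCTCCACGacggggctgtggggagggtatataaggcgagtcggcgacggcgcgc
Derl3: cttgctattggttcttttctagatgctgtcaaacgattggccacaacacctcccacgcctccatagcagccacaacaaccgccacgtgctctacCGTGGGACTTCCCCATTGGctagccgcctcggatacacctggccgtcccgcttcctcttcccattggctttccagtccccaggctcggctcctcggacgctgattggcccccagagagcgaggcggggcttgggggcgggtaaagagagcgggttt
Hspa5, the ER chaperone BiP, stood at 297, 822, 1930 and 1810 CPM in MlxKO 1 to 4 and at 327, 408 and 661 CPM in MycKO (log2 1.61, SE 0.41, edgeR adjusted p = 0.0445). Creld2, an ER disulfide isomerase, stood at 14.1, 45.3, 160 and 148 CPM and at 15.1, 26.5 and 31.6 CPM (log2 2.16, SE 0.55, edgeR adjusted p = 0.0408). Derl3, which helps export misfolded protein, stood at 0.124, 6.07, 71.6 and 57.6 CPM and at 0.337, 0.808 and 1.44 CPM (log2 5.59, SE 1.10, edgeR adjusted p = 0.0097). In all 3 genes MlxKO 1 was below every MycKO library and MlxKO 2, 3 and 4 were above every one, with MlxKO 3 and MlxKO 4 the highest. The Derl3 call held without any 1 library, Creld2 lost its call in 9 fits and Hspa5 in 13. DKO stood at 883 to 2760 CPM of Hspa5 and WT at 296 to 845 CPM.

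**Figure D5:**
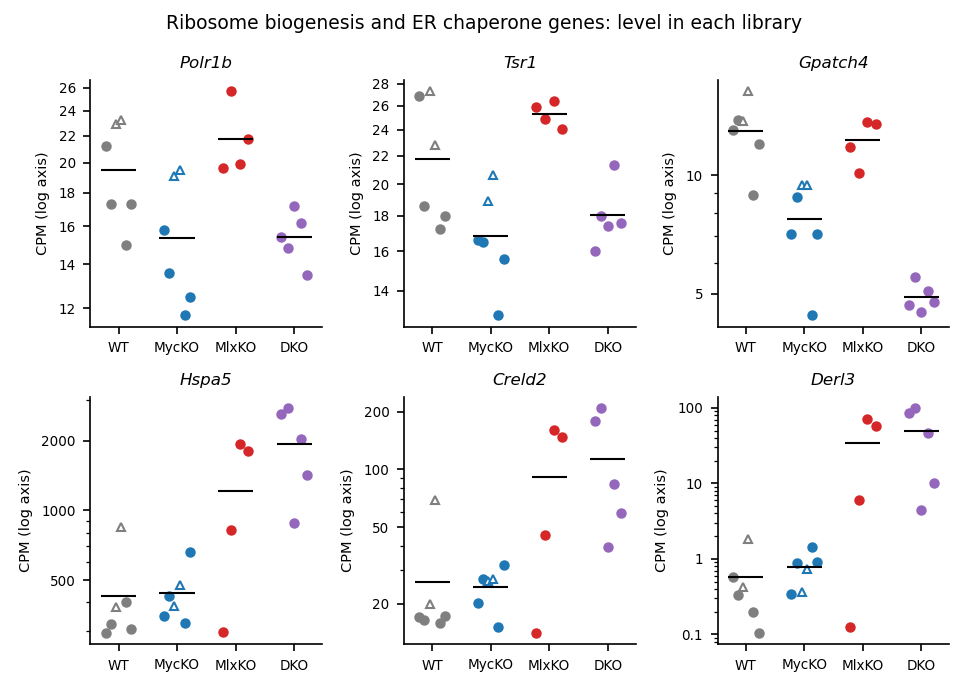
CPM on log axes of 3 ribosome biogenesis genes and 3 ER genes in each library of WT, MycKO, MlxKO and DKO liver, with filled circles for males, open triangles for females and a line at the group mean. Polr1b, Tsr1 and Gpatch4 are higher in all 4 MlxKO livers than in all MycKO livers. Within MlxKO, Hspa5, Creld2 and Derl3 are highest in MlxKO 3 and MlxKO 4 and lowest in MlxKO 1. DKO 1 and DKO 2 are higher still in these ER genes.

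Sex-biased genes were read with the term for sex, as all MlxKO livers were male. Of 35 male-biased genes 9 were called lower in MlxKO and none higher, beside 1.64% called lower over all genes tested, with a median of −0.86. The summed level of MlxKO was 17700 to 37700 CPM, and that of MycKO 2360 and 2980 CPM in the females and 36000 to 68000 CPM in the males. Serpina12, a secreted serpin also known as vaspin, stood at 0, 0, 0.0951 and 0.214 CPM in MlxKO 1 to 4 and at 0.869, 3.07 and 38.6 CPM in MycKO (log2 −7.02, SE 1.41, edgeR adjusted p = 0.0111). MycKO 5 held the 38.6 CPM, all MycKO libraries were above all MlxKO libraries, and the edgeR call ended without MlxKO 2 (adjusted p = 0.0592). Mup3, a major urinary protein of a family of near-identical copies, stood at 2040, 3730, 3880 and 3480 CPM against 6140 to 9750 CPM in male and 1080 and 1490 CPM in female MycKO livers (log2 −1.22, SE 0.26, edgeR adjusted p = 0.0138), a call lost without MlxKO 1. The 9 became 2 without MlxKO 2, 4 without MlxKO 1, MlxKO 3 or MlxKO 4, 5 without DKO 3, MycKO 5, MycKO 6 or WT 3, 6 without DKO 4, DKO 5, MycKO 2, MycKO 3 or MycKO 4, and 1 with no term for sex. In the fit of male libraries only, from all groups, 9 were called. Of 35 female-biased genes 1 was called higher, beside 0.739% of all genes tested. This was Slc22a26, an organic anion transporter, with log2 2.47 (SE 0.64, edgeR adjusted p = 0.0448) from levels of 0.327 to 1.9 CPM in MlxKO, 0.0932 to 0.458 CPM in male MycKO and 66.3 to 76.6 CPM in female MycKO livers. Without the term for sex its direction turned, and its call ended in 11 of the 21 fits that left out 1 library.

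A small part of the secreted and drug-metabolizing genes was called lower. Of 63 genes of secreted liver proteins 4 were called lower (F7, Ambp, C9 and C8a), beside 1.64% of all genes tested, 56 had a negative change and the median was −0.38. Coagulation factor F7 stood at 52.3, 37.4, 51.3 and 48.1 CPM in MlxKO 1 to 4 against 66.4, 69.9 and 88.2 CPM, without overlap (log2 −0.69, SE 0.14, edgeR adjusted p = 0.0097). None of the 4 was called without MlxKO 2, 1 without MlxKO 3, MlxKO 4, MycKO 5 or MycKO 6, and 2 without MlxKO 1 or MycKO 2, while the shared term called 4 of the list and DESeq2 13. Of 50 cytochrome P450 and phase II genes 5 were called lower and none higher, beside 1.64% called lower over all genes tested. The median was −0.38, and the summed level overlapped, at 19600 to 24100 CPM in MlxKO and 15600 to 31800 CPM in MycKO. None of these 5 was called without MlxKO 2 or MlxKO 3, 1 without MlxKO 1 or MycKO 2, 2 without MlxKO 4, MycKO 5 or MycKO 6, and 3 without DKO 3 or MycKO 3. Cyp2f2 stood at 472, 288, 383 and 556 CPM against 309, 769 and 1020 CPM, which overlapped (log2 −1.0, SE 0.22, edgeR adjusted p = 0.022). Outside the lists, and named after their values were seen, the P450 genes Cyp2d40 and Cyp2c67 were apart between groups, at 10.8 to 19.2 against 29.5 to 158 CPM and at 45.2 to 56.6 against 74.4 to 434 CPM (log2 −2.40, SE 0.37 and −2.12, SE 0.37, edgeR adjusted p = 0.00165 and 0.00451). No gene of the circadian clock was called by edgeR or limma-voom out of 20, and DESeq2 called 2. There were 10 at an unadjusted p under 0.05, 2 higher and 8 lower in MlxKO, beside 19.4% of all genes tested. The clock gene Dbp stood at 79.5 CPM in MycKO 5 and at 1.38 to 2.84 CPM in the other MycKO livers, with WT 5 at 54.7 CPM. The cell cycle list gave 1 of 35, called lower, beside 1.64% of all genes tested. This was Rrm2, a ribonucleotide reductase subunit, at 1.12 to 1.61 CPM against 2.29 to 12.2 CPM (log2 −1.85, SE 0.39, edgeR adjusted p = 0.0138), a call lost without MlxKO 2 or MlxKO 4.

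The remaining large changes were of genes in no list. Among the rises, Osbpl3, a lipid-binding protein of membrane contacts, stood at 28.1, 23.6, 21 and 25.2 CPM in MlxKO 1 to 4 and at 2.75, 4.13 and 8.4 CPM in MycKO. It was 5.09-fold higher (log2 2.35, SE 0.50, edgeR adjusted p = 0.015), lost its call without MycKO 2 (adjusted p = 0.0543), and was called with the shared term (log2 5.23). The homeobox gene Pknox2 stood at 2.77, 3.18, 6.23 and 10.0 CPM and at 0.858, 1.24 and 1.7 CPM (log2 2.27, SE 0.37, edgeR adjusted p = 0.00247). The insulin-degrading enzyme Ide stood at 172, 234, 193 and 194 CPM and at 84.3, 101 and 110 CPM (log2 1.13, SE 0.26, edgeR adjusted p = 0.0257). All 3 were apart between groups, and the Pknox2 call held without any 1 library while that of Ide ended without MlxKO 2, MlxKO 3 or MlxKO 4. With the shared term neither Pknox2 (log2 1.82, edgeR adjusted p = 0.279) nor Ide (log2 0.2, edgeR adjusted p = 0.88) was called. Ide stood at 165 and 157 CPM in WT 3 and WT 4 and at 65.1 to 129 CPM in the other WT livers. In DKO it ran from 97.7 to 243 CPM. The other largest rises among genes that did not overlap were Col5a2, Lncbate1, Adrb3, Piga, Zfp973, Abca5 and Zkscan8, with log2 changes of 0.94 to 1.54, and each of these calls ended without at least 4 of the 21 libraries in turn. None of these genes was called with the shared term. Abca5 lies 9.2 Mb from Mlx on chromosome 11. Lncbate1 overlaps Zfhx3, Adrb3 overlaps Gm45470 and Zfp973 overlaps Gm14305 in the annotation, so some of their reads may belong to the neighbour. Among the falls, Igf2bp2, an RNA-binding protein of fetal and growing tissue, stood at 0.248, 0.234, 0.333 and 0.32 CPM and at 0.945, 3.41 and 4.89 CPM (log2 −3.21, SE 0.41, edgeR adjusted p = 0.000312). Plcxd1, a phospholipase-like protein, stood at 0.538, 0.374, 0.0951 and 0.16 CPM and at 1.66, 4.51 and 6.48 CPM (log2 −3.45, SE 0.48, edgeR adjusted p = 0.000747). Neither overlapped, and both calls held without any 1 library. With the shared term neither was called (log2 −3.57 and −3.76, edgeR adjusted p = 0.0505 and 0.0733). Plcxd1 overlaps Gtpbp6 and Xirp1 overlaps Cx3cr1 in the annotation, so some of their reads may belong to the neighbour. Xirp1, an actin-binding protein of muscle, was at 0 to 0.267 CPM against 0.585 to 3.18 CPM and lost its call without MlxKO 1, MlxKO 2, MlxKO 3 or MycKO 2.

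The authors' deposited table also holds a comparison of these 2 groups. Among the genes tested here the authors' deposited table gives an adjusted p above 0 and under 0.05 for 295 genes, 74 higher and 221 lower in MlxKO. Of these, 170 were among the 319, which is 57.6% of the calls in the authors' deposited table and 53.3% of the calls here, and 169 of the 170 had the same direction.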

How the data were processed

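The series holds 31 libraries of mouse liver poly(A) RNA, and the 21 of 5-month-old liver share 1 table, used here. Per the deposited table's header the authors gave raw counts per gene for each library, and beside them, per the file headers, log2 fold changes and p-values of their own comparisons. The submitters' processing notes name the genome build GRCm38.p6, and the sources used here do not state the aligner, counter, strandedness or the authors' test. All 41549 genes are listed, of which 20937 had no count.

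Counts were tested with edgeR 4.0.16 (limma 3.58.1, R 4.3.3): TMM, filterByExpr with a minimum count of 10 (13397 genes), and the quasi-likelihood test of MlxKO minus MycKO with 4 groups and sex as terms over all 21 libraries, with 16 residual degrees of freedom. P-values were adjusted over all genes tested by Benjamini-Hochberg, with calls under 0.05. The SE of a log2 fold change is its size divided by the square root of the F statistic. Levels are CPM with TMM-scaled library sizes. Totals ran from 18226467 to 28476797 counts over the 21 libraries. Alternatives were DESeq2 1.42.0, limma-voom, other terms, filters and offsets, and fits without libraries or loci. Of these, the fits without WT 3 and WT 4 and without chromosome 11 were added after seeing the data. On simulated counts with the same libraries edgeR recovered 57.1% of genes changed by a log2 of 1 and 89.9% of those changed by a log2 of 2, with 4 false calls. The simulated counts held no sex difference and no split among WT livers, so they do not give the error rate of the calls here. The named genes were the up to 12 largest called changes in each direction with no overlap and a mean of at least 1 CPM, the 4 list members with the smallest p in each list, the targets, and others said to be chosen after their values were seen. The members of the comparison and the gene lists were chosen with earlier results of these data known. Promoter bases are from RefSeq on GRCm38.p6.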

Additional observations from a re-analysis of the deposited data

Results flagged for a closer look

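In 14 of 214 sets of 4 or 6 libraries (6.54%), 1 library stood far from the rest of its own group in CPM. A rate of about 1 in 20 was set as the expected one. The sets share libraries, and many hold genes chosen for their calls, so this rate is not a test here.

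MycKO 5 was the high library of its group for the interferon and antigen genes Rtp4 at 16.3 CPM (the others 7.09 to 9.42), Psmb10 at 28.0 CPM (12.3 to 16.6) and Xaf1 at 5.27 CPM (2.36 to 2.98), and for the male-biased genes Hsd3b5 at 181.0 CPM (0 to 6.12) and Serpina12 at 38.6 CPM (0.869 to 8.35). It also lay apart on the second principal component with WT 2 and WT 5. MycKO 4 was high for Col5a2 at 2.63 CPM (1.3 to 1.62), and MycKO 1 was the only MycKO library with a count of Gm10184, at 0.434 CPM, and of BC018473, at 0.0964 CPM.

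MlxKO 2 was high for Rgs16 at 3.88 CPM (0.285 to 0.745) and BC018473 at 13.7 CPM (2.14 to 3.56), and low for Psmb8 at 3.83 CPM (8.99 to 9.83), Cyp2c67 at 45.2 CPM (55.4 to 56.6) and Pygl at 118.0 CPM (149 to 150). MlxKO 4 was high for Slc10a1 at 254.0 CPM (226 to 229). The calls of Rgs16, BC018473, Psmb8, Cyp2c67, Pygl and Slc10a1 held without any 1 library.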

How the results depend on the processing

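No paired analysis was possible because the labels give no replicate numbers that link MlxKO and MycKO livers. Against 319 genes (99 higher, 220 lower in MlxKO), DESeq2 called 726 (265 and 461), leaving out WT 3 and WT 4 gave 574 (270 higher), no term for sex gave 188 (61 and 127), and the term that female WT livers, MlxKO and DKO share gave 74 (44 and 30). The count of genes higher in MlxKO was 215 in males only, 62 without WT 2, WT 5 and MycKO 5, and 57 with no filter on low counts. The share of calls higher in MlxKO was 47.0% without WT 3 and WT 4, 45.6% in males only and 59.5% with the shared term. Without 1 library at a time the total ran from 92 to 503, the higher genes from 22 to 198 and the lower from 70 to 305. The log2 change of Myc ran from 2.36 to 2.81 and that of Mlx from -0.39 to -0.26. Myc was 2.22 and not called with the shared term (edgeR adjusted p of 0.27), and Mlx was -0.35 and called by DESeq2 (adjusted p = 0.046). The direction turned with the shared term for Kpna2 (5.99), Ivd (-0.01), Gosr2 (-0.23), Gm10184 (-8.92) and BC018473 (-2.38), and with no term for sex the Slc22a26 log2 fold change was -4.43; the cause was not tested. Other counts stayed within 1.5 times, among them DESeq2 size factors in edgeR (314), limma-voom (319), length and GC offsets (321), no genes near the loci (299) and no chromosome 11 (272), the last chosen after seeing the data, as was leaving out WT 3 and WT 4. Depth was close to even, at 18628627 to 23704156 counts in the 10 libraries, and low genes such as Cd8a and Igf2bp2 rest on few reads in MlxKO.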
